A study of Elopichthys bambusa with 12 samples.

Results

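The most abundant liver transcripts of a predatory cyprinid of fresh water, the yellowcheek carp (Elopichthys bambusa), were described in fed and fasted fish. They were taken as the assembled transcript features whose mean over 12 RNA sequencing libraries was 1000 CPM or more, where CPM is the count of a feature per 1000000 counts of its library. This held for 135 of 42353 features, which are called the abundant features below and are ranked from 1 to 135 by that mean. Because the level itself chose them, their levels and shares are given as a description, without a test. The rule used the mean over all libraries and no comparison, but a feature that reached it through some groups alone had to differ between groups, and 39 of the 135 were under 1000 CPM in at least 1 group mean. For comparisons with such a group, the p-values of these 39 restate in part how they were chosen.

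The study had 4 groups of 3 liver libraries each. Fish were starved for 8 or for 28 days, and a control group for each time was kept on a commercial feed. The labels used here give no strain, age or sex, and they do not say whether a library came from 1 fish or from a pool. The p-values therefore measure the spread between these libraries, which may be technical. Each library held between 16785827 and 19901335 estimated counts, so that 3 counts equalled 0.151 to 0.179 CPM. The lowest level of an abundant feature in any library was 3.7 CPM. In principal components of log2(CPM + 1) over the features tested, the fed 8-day libraries lay at 122.3 to 124.3 on the first component (42.3% of the variance) and the other 9 at -67.4 to -17.9. On the third component (8.8%) fasted replicate 2 at 8 days and fasted replicates 2 and 3 at 28 days lay at -35.7 to -32.7, and the other 3 fasted libraries at 45.0 to 62.2. These 3 fasted libraries are said to stand apart, and the counts of calls that use fasted libraries are also given without them, which leaves 1 fasted library at 28 days that is assumed to vary like the other groups.

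The liver makes most of the proteins of blood plasma, among them apolipoproteins, transferrin, fibrinogen and complement factors, and transcripts of such secreted proteins usually make up much of its messenger RNA. It also stores glycogen and fat, which are drawn on when food is withheld, and the genes of lipid synthesis, fat oxidation and glucose production are known to respond to feeding. In cyprinid fish, exocrine pancreas tissue, which makes digestive enzymes, lies scattered within the liver. The files do not pair the identifiers of this assembly with gene names, so no role can be given to any of the 135 features, and the labelled tissue could not be checked against liver markers. For the same reason, features are named by rank, and by identifier for a few.

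The 135 abundant features held more than 50% of the estimated counts in each of the 12 libraries. Their share was 55.16%, 55.27% and 55.13% in the fed 8-day libraries, 60.32%, 56.89% and 60.42% in the fasted 8-day libraries, 60.54%, 60.35% and 58.37% in the fed 28-day libraries, and 59.14%, 56.92% and 58.81% in the fasted 28-day libraries. The fed 8-day libraries were thus the lowest 3 of the 12, and the other 3 groups overlapped. As means ± SD (n = 3 each), the shares were 55.2% ± 0.071 in fed 8-day, 59.2% ± 2.01 in fasted 8-day, 59.8% ± 1.20 in fed 28-day and 58.3% ± 1.20 in fasted 28-day livers. The 8-day difference of 4.02 percentage points and the 28-day difference of -1.46 (fasted minus fed) stood beside within-group SDs of up to 2.01. In a bulk sample, fewer cells of a type and less RNA per cell cannot be told apart, and a share of a library says nothing of the amount of RNA in the liver.

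Counts were spread over more features in the fed 8-day livers. The smallest number of features that together reached 50% of the counts was 82, 84 and 85 in those libraries, and 57 to 74 in the other 9. The 10 features with the highest overall mean took 18.2% ± 0.72 of the counts of fed 8-day, 21.2% ± 2.62 of fasted 8-day, 20.7% ± 0.60 of fed 28-day and 19.2% ± 1.18 of fasted 28-day libraries (mean ± SD, n = 3 each). The abundant features from rank 11 on lay closer together, at 37.01%, 37.98%, 39.10% and 39.08% in the same order of groups.

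**Figure D1:**
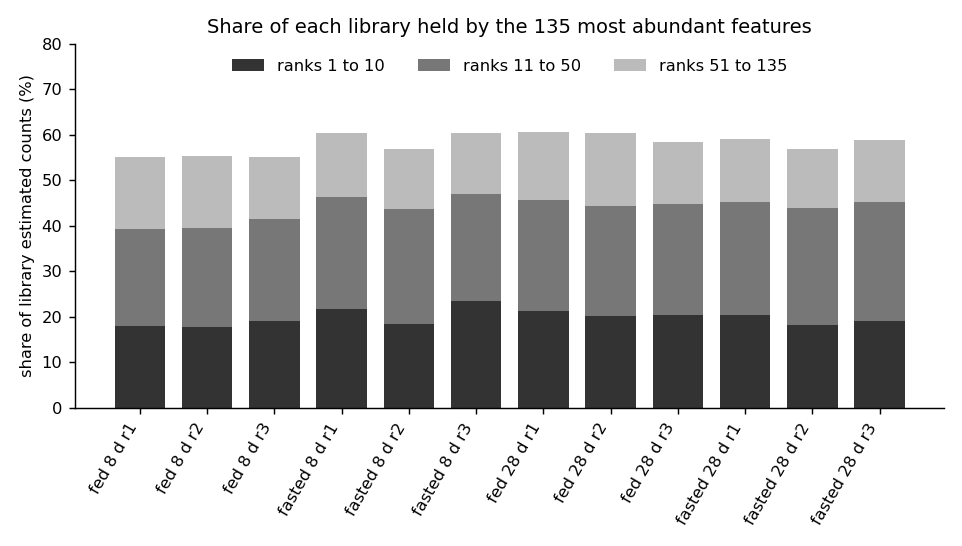
Share of the estimated counts of each library (%, stacked bars, 1 bar per library) taken by ranks 1 to 10, ranks 11 to 50 and the remaining abundant features. The fed 8-day bars reach 55.13% to 55.27%, and the other bars 56.89% to 60.54%.

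The order of the abundant features was nearly the same in both fasted groups and less alike between fed and fasted fish. Over the 135 features, Spearman's rho of the group mean CPM was 0.974 between fasted 8-day and fasted 28-day livers and 0.837 between fed 8-day and fed 28-day livers. It was 0.552 between fed and fasted fish at 8 days and 0.668 at 28 days. These values are across features, which are not independent replicates, and features chosen for a high mean span a narrow range of levels. The rule also let in 13 features through both fed groups alone, 2 through the fed 8-day group alone and 5 through both fasted groups alone. By that choice they lower the values between fed and fasted fish, the 2 at 8 days alone. The values without these features were not worked out. In each library 111 to 122 of the 135 were also among its own 135 most abundant features. The lowest placed of them still ranked 390th in the fed 8-day and 259th in the fed 28-day group mean, but 4873rd in the fasted 8-day and 3985th in the fasted 28-day group mean. No abundant feature was without counts in any library.

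A total of 96 of the 135 features had a group mean of 1000 CPM or more in all 4 groups, 18 in 3 groups, 19 in 2 groups and 2 in 1 group. The largest class among the other 39 held 13 features that reached 1000 CPM in both fed groups and in neither fasted group. A further 11 reached it in every group except the fed 8-day group, 6 in every group except the fed 28-day group, and 5 in both fasted groups alone. The highest group mean fell in the fed 8-day group for 34 features, in the fasted 8-day group for 31, in the fed 28-day group for 33 and in the fasted 28-day group for 37. The lowest group mean was more unevenly placed, with 63 features lowest in the fed 8-day group, against 31 in the fed 28-day, 22 in the fasted 28-day and 19 in the fasted 8-day group. For 52 features the highest group mean was less than 1.5 times the lowest, and the median of this ratio was 1.61.

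The abundant features were long. Their lengths, obtained by dividing counts by FPKM (fragments of a feature relative to its length and to the size of the library), ran from 549 to 11930 nucleotides with a median of 2362. The 739 features at 100 up to 1000 CPM had a median of 1861 nucleotides and all 42353 features one of 598. Of the abundant features 88.9% were 1000 nucleotides or longer, against 79.4% of the 739 and 29.8% of all features. A longer transcript gives more fragments at the same number of molecules, so a rule on CPM favours long features. The longest abundant feature, rank 47, was also the longest of the whole table, and its level per length of 266.0 FPKM was the 320th highest. Over the 135 features, Spearman's rho of length was 0.20 with mean CPM and -0.48 with mean FPKM, where length enters the second value by its definition.

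Ranked per length instead, 88 of the 135 features stayed among the 135 highest mean FPKM values. The 47 that left had a median length of 3131 nucleotides, and the 47 that took their place had a median of 617. A mean of 1000 FPKM or more was reached by 93 features, 71 of which were abundant features (52.6% of the 135 and 76.3% of the 93). The feature with the highest level per length was rank 13, of 647 nucleotides, at 17628 FPKM. Of the 10 highest by CPM, 6 were also among the 10 highest by FPKM. Per length, the abundant features held 43.8% ± 0.72, 44.5% ± 2.18, 48.0% ± 2.24 and 43.4% ± 1.44 of the FPKM total in fed 8-day, fasted 8-day, fed 28-day and fasted 28-day livers (mean ± SD, n = 3 each). On this scale the fed 28-day libraries, at 45.39% to 49.49%, overlapped with the fasted 8-day libraries alone.

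The feature of rank 1, TRINITY_DN14900_c2_g1_i2_1, of 4291 nucleotides, was the most abundant in 9 of the 12 libraries. Its level was 14487, 15784 and 15634 CPM in fed and 45653, 39368 and 44507 CPM in fasted fish at 8 days. At 28 days it was 34689, 35362 and 38949 CPM in fed and 38099, 36752 and 42183 CPM in fasted fish. The 3 fed 8-day libraries were the lowest, with no overlap with any other library, while the fed and fasted 28-day libraries overlapped. Its share of a library was 1.53% ± 0.07 in the fed 8-day group and 3.63% to 4.32% as the mean of the other groups.

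In the fed 8-day livers the most abundant feature was rank 2, TRINITY_DN16845_c0_g4_i13_3, of 2362 nucleotides. It stood at 30594, 29559 and 31525 CPM there and at 22484, 18171 and 23960 CPM in the fasted 8-day livers. The fed 28-day libraries held 27412, 17319 and 19900 CPM and the fasted 28-day libraries 21157, 17672 and 19455 CPM. The fed 8-day libraries were thus the highest 3, but with TMM scaling (a scaling of libraries that takes most features as unchanged) no comparison passed the test. With library size alone it was lower in fasted livers at 8 days (log2 fold change -0.51, edgeR adjusted p = 0.0413) and in fed livers at 28 against 8 days (log2 fold change -0.51, edgeR adjusted p = 0.0373).

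The other 8 of the first 10 differed in how far they moved. Rank 3 was highest in the fed 28-day libraries, at 25712, 35262 and 32419 CPM, against 18330 to 21717 CPM in the other 9. Rank 10 was lowest in the fed 8-day libraries, at 6349, 7840 and 8375 CPM, against 13312 to 19407 CPM elsewhere. Rank 7 was higher in the fasted libraries, at 15242 to 23920 CPM, than in the fed libraries, at 8972 to 11092 CPM, without overlap between the 6 fed and the 6 fasted libraries.

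Ranks 4, 6, 8 and 9 had group means that differed by 1.17 to 1.45 times. Rank 5 was the least even of the 10 within a group, at 24363, 13244 and 35078 CPM in the fasted 8-day and 25847, 11954 and 12976 CPM in the fasted 28-day livers. Its 3 low values were those of the 3 fasted libraries that stood apart. Ranks 6 and 9 carried the same assembly component number, and so did ranks 19 and 98. The files do not say whether such features are related transcripts, and reads may have been shared between near-identical ones.

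**Figure D2:**
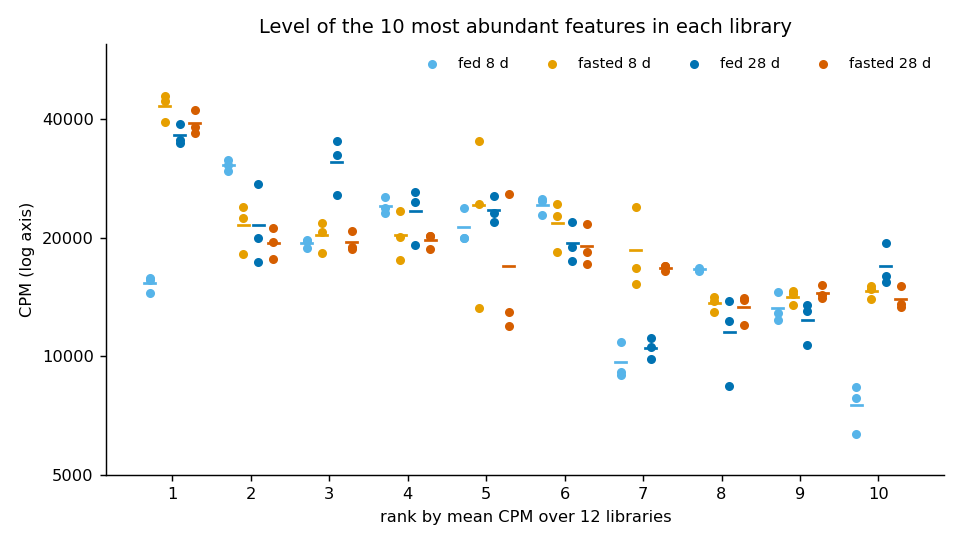
Level of the 10 most abundant features in CPM (log axis) against their rank, with 1 point per library and a bar at each group mean of 3 libraries. Ranks 1 and 10 are lowest in the fed 8-day libraries, and rank 3 is highest in the fed 28-day libraries.

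The first comparison asked what a fast of 8 days changed among the abundant features. In edgeR's quasi-likelihood test over all 32212 features tested, with Benjamini-Hochberg adjustment, 49 of the 135 were higher and 14 lower after the fast, and 72 did not pass at an adjusted p under 0.05. Over all features tested, 13.3% were called higher and 12.1% lower. Among the 739 features at 100 up to 1000 CPM, which are closer in depth to the abundant ones, 31.3% were higher and 21.0% lower. The median log2 fold change was 0.30 over the 135 and 0.16 over all features tested. In CPM, 58 of the 135 were higher in each fasted than in each fed library and 26 lower, where 21.4% and 20.9% of all features tested were.

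Among the rising features, rank 1 had a fasted mean CPM of 2.82 times its fed mean, with a log2 fold change of 1.54 (SE 0.16, edgeR adjusted p = 5.88e-05). The largest rise among the abundant features called without overlap was that of rank 68, TRINITY_DN14514_c0_g1_i5_1, of 3250 nucleotides. It went from 395, 454 and 292 CPM in fed to 2791, 3348 and 2845 CPM in fasted fish, a log2 fold change of 2.996 (SE 0.18, edgeR adjusted p = 1.68e-06). The next largest was that of rank 49, of 8283 nucleotides, from 520, 642 and 595 to 3196, 3946 and 2591 CPM (log2 fold change 2.48, SE 0.40, edgeR adjusted p = 0.00101). Both of these were low in the fed 8-day livers alone, since fed 28-day livers held 2024 to 2536 CPM of rank 68 and 1730 to 6885 CPM of rank 49. Ranks 68 and 49 had reached the 1000 CPM rule through the other groups, so their p-values restate in part how they were chosen.

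Ranks 7 and 10 also rose, by 0.99 each on the log2 scale (SE 0.21 and 0.17, edgeR adjusted p = 0.00517 and 0.00154). Rank 16, of 3455 nucleotides and picked out after its values were seen, rose from 3755, 3898 and 4409 to 16313, 18370 and 13182 CPM (log2 fold change 2.0, SE 0.18, edgeR adjusted p = 2.47e-05). The fasted mean of rank 16 was 3.97 times the fed mean, and the libraries of both groups did not overlap.

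Falls were fewer than rises, and most of those of 1 or more on the log2 scale were of features that had reached the 1000 CPM rule through fed livers alone. The largest fall was that of rank 42, TRINITY_DN14406_c0_g1_i8_4, of 4359 nucleotides, which stood at 7469, 7331 and 8056 CPM in fed and at 8.37, 14.0 and 11.1 CPM in fasted livers. The fed mean was 683.6 times the fasted mean, and the log2 fold change was -9.41 (SE 0.20, edgeR adjusted p = 1.16e-09). Rank 112, TRINITY_DN16258_c0_g1_i7_3, of 1563 nucleotides, fell from 5568, 5270 and 1750 to 41.2, 40.6 and 7.21 CPM (log2 fold change -7.15, SE 1.09, edgeR adjusted p = 0.000743). For both, the lowest fed library lay far above the highest fasted one, and the 3 libraries of rank 112 differed more within each group than those of rank 42. Both had reached the rule through fed livers alone, so their p-values restate in part how they were chosen. An absolute log2 fold change of 1 or more was reached by 19 of the 49 higher and 12 of the 14 lower features.

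The 8-day result was the same in direction under every scaling of the libraries that was tried, and its counts changed with the fed group taken as control. All 4 scalings called 46 features higher and 14 lower. Over all features tested, the single scalings called 12.1% to 14.4% higher and 11.2% to 12.5% lower. Set against the fed 28-day livers instead, the fasted 8-day livers had 9 of the 135 higher and 23 lower. Without the fasted library that stood apart at this time and the 2 at 28 days, the counts were 66 higher and 17 lower. For both of these alternatives the share over all features tested was not worked out. Their counts therefore cannot be told apart from a shift of the whole table.

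The second comparison asked the same of a fast of 28 days. With TMM scaling, 35 of the 135 features passed, where 9.92% of all features tested did (edgeR, adjusted p under 0.05). Of these 35, 10 were higher and 25 lower after the fast, and over all features tested 4.14% were higher and 5.79% lower. Of the 739 features at 100 up to 1000 CPM, 8.39% were higher and 27.5% lower. The direction of these counts depended on the scaling: with library size alone 30 of the 135 were higher and 11 lower. The direction over all features tested turned as well, with 7.78% higher and 3.47% lower with library size alone. The median log2 fold change of the 135 was -0.30 with TMM and 0.04 with library size alone, and that of all features tested was 0.10 and 0.45. Under both scalings the median of the 135 thus lay below that of all features. In CPM, 42 of the 135 were higher in each fasted than in each fed library and 26 lower, where 26.1% and 9.37% of all features tested were. A call in the same direction under all 4 scalings was made for 7 higher and 11 lower features, and no feature was called in opposite directions by TMM and by library size alone.

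The largest rise at 28 days was that of rank 22, of 2222 nucleotides, from 2368, 902 and 936 CPM in fed to 8941, 16599 and 14606 CPM in fasted livers (log2 fold change 2.87, SE 0.49, edgeR adjusted p = 0.00467). It had also risen at 8 days, from 3628, 4232 and 1966 to 7979, 16640 and 4871 CPM (log2 fold change 1.54, SE 0.47, edgeR adjusted p = 0.0325). The highest fasted values of rank 22 were those of the 3 libraries that stood apart, and the fed and fasted libraries did not overlap at either time. The 8-day call was lost when fasted replicate 1 or 2 or any of the fed libraries was left out (log2 fold change 1.12 to 1.74, edgeR adjusted p = 0.0531 to 0.12). Without the 3 fasted libraries that stood apart neither call held (log2 fold change 2.47 at 28 and 1.11 at 8 days, edgeR adjusted p = 0.0684 and 0.166). Rank 95, of 886 nucleotides, rose from 603, 531 and 555 to 2624, 1974 and 1460 CPM (log2 fold change 1.52, SE 0.26, edgeR adjusted p = 0.00526). It was under 1000 CPM in the fed 28-day group mean alone, so this p-value restates in part how it was chosen.

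The largest fall at 28 days was again that of rank 42, from 6342, 6849 and 7399 CPM in fed to 14.8, 14.9 and 15.0 CPM in fasted livers. The log2 fold change was -9.18 (SE 0.20, edgeR adjusted p = 1.37e-09), and the spread within each group was small beside the difference. Rank 110, of 955 nucleotides, fell from 3735, 3924 and 1287 to 15.0, 103 and 197 CPM, with a much larger error (log2 fold change -5.23, SE 1.35, edgeR adjusted p = 0.034). This call was lost without any 1 of the 28-day libraries other than fed replicate 3 (log2 fold change -6.14 to -4.82, edgeR adjusted p = 0.0602 to 0.12). Ranks 42 and 110 had reached the rule through fed livers alone, so the same limit holds for their p-values here. Among the first 10, rank 3 fell to 18893, 20734 and 18744 CPM (log2 fold change -1.02, SE 0.17, edgeR adjusted p = 0.00391), and it also passed with library size alone (log2 fold change -0.68, adjusted p = 0.00476). Rank 10 fell with TMM (log2 fold change -0.62, SE 0.17, edgeR adjusted p = 0.0408) but did not pass with library size alone (adjusted p = 0.172), nor without fasted replicate 2 or 3 or fed replicate 1 or 2 (log2 fold change -0.72 to -0.53, edgeR adjusted p = 0.0608 to 0.15), nor without the 3 fasted libraries that stood apart (log2 fold change -0.54, edgeR adjusted p = 0.268).

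Rank 17, of 3116 nucleotides and picked out after its values were seen, was the most abundant feature that fell at both times under both of these scalings. It stood at 16428, 16734 and 16069 CPM in fed and at 4892, 4845 and 4466 CPM in fasted livers at 28 days (log2 fold change -2.14, SE 0.18, edgeR adjusted p = 6.49e-05). At 8 days it stood at 8653, 8424 and 10704 CPM in fed and 4920, 4434 and 4975 CPM in fasted livers (log2 fold change -0.92, SE 0.17, edgeR adjusted p = 0.00238). The fasted levels were close at both times, and the fed levels were not.

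The 28-day count was sensitive to single libraries. It was 35 features with all libraries. It was 16 without fasted replicate 2, 20 without fasted replicate 3, and 21, 18 and 22 without fed replicates 1, 2 and 3, and 20 (9 higher, 11 lower) without the 3 fasted libraries that stood apart. Set against the fed 8-day livers, the fasted 28-day livers had 48 features higher and 15 lower. The share over all features tested was not worked out for this contrast or for the fits without libraries. The counts of these alternatives therefore cannot be told apart from a shift of the whole table.

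**Figure D3:**
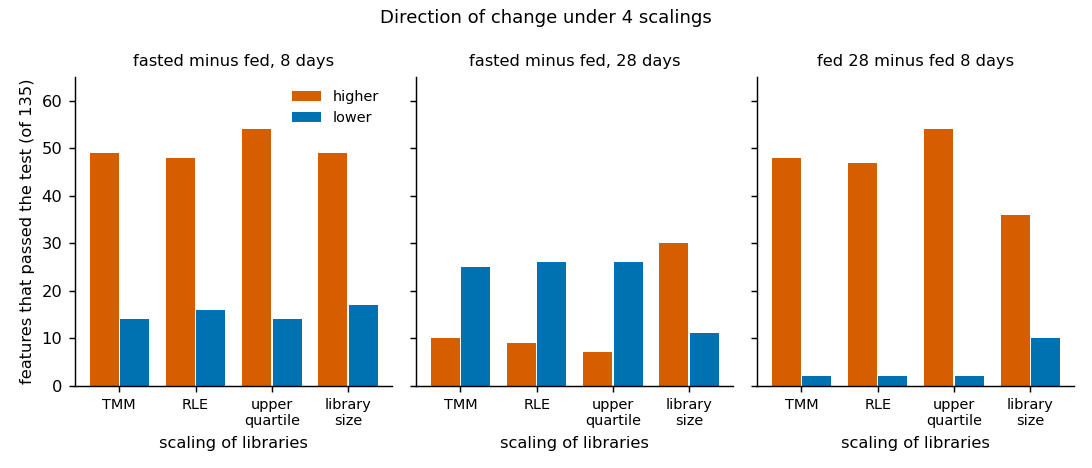
Number of the 135 abundant features that passed the edgeR test as higher or lower (bars from 0) under 4 scalings of the libraries, in 1 panel per comparison. At 8 days more are higher under each scaling, while at 28 days 25 are lower and 10 higher with TMM but 11 lower and 30 higher with library size alone. All features tested turned as well at 28 days, with 5.79% lower and 4.14% higher with TMM but 3.47% lower and 7.78% higher with library size alone.

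The calls of both fasts overlapped in part. Of the 49 features higher at 8 days and the 10 higher at 28 days, 9 were shared (18.4% and 90.0%). Of the 14 lower at 8 days and the 25 lower at 28 days, 9 were shared (64.3% and 36.0%). Of those lower, 10 at 8 days and 7 at 28 days were among the 13 features at 1000 CPM in both fed groups alone. These 13 were low in both fasted groups by the way they were classed, so the shared falls follow in part from that choice. A single feature, rank 10, rose at 8 and fell at 28 days with TMM, and 56 features passed on neither day. Under all 4 scalings, 5 features rose and 6 fell at both times. The overlap of both days over all features tested was not worked out. These counts and shares therefore cannot be read as a trait of the abundant features.

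**Figure D4:**
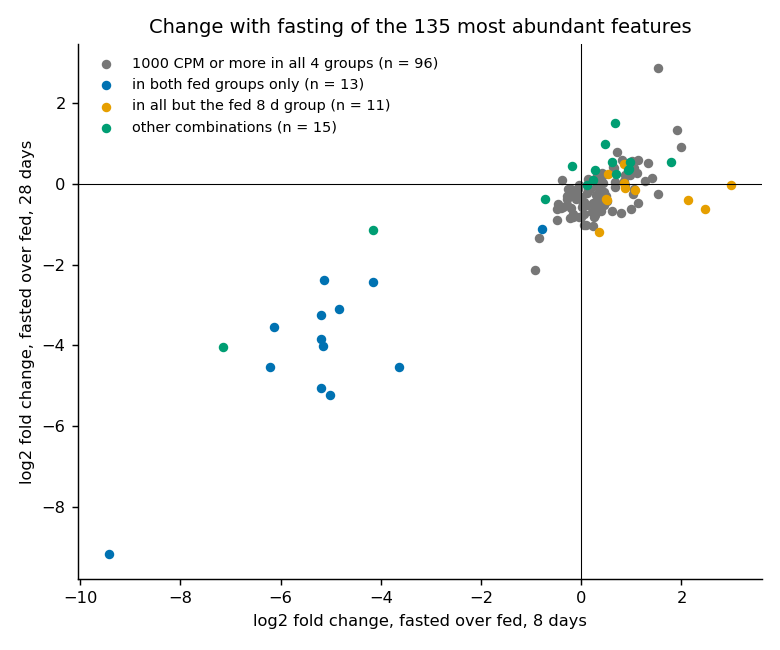
Log2 fold change of fasted over fed livers at 28 days against that at 8 days for each of the 135 abundant features (1 point each, TMM scaling), coloured by the groups in which the feature reached 1000 CPM. The features of both fed groups alone lie at the lower left, down to -9.41 and -9.18, and most of the 96 features at 1000 CPM in all groups lie near 0.

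The difference between the fasts was also tested directly, as an interaction. It equals the change from 8 to 28 days in fasted livers minus that in fed livers. With TMM, the median log2 fold change of the 135 was -0.11 between fasted and 0.37 between fed livers. The calls therefore restate in part the comparison of fed livers given below, and do not by themselves show which groups changed. The fasting effect was lower at 28 than at 8 days for 37 of the 135 features and higher for none (edgeR, adjusted p under 0.05), where 8.13% of all features tested were lower and 6.24% higher. At an unadjusted p under 0.05, 54 were lower and 3 higher, where 9107 of the 32212 features tested passed in either direction. Of the 739 features at 100 up to 1000 CPM, 27.1% were lower and 6.36% higher. With library size alone 22 of the 135 were lower and 2 higher, where 5.18% of all features tested were lower and 9.19% higher. Under all 4 scalings 22 of the 135 were lower. The single scalings called 5.18% to 8.76% of all features tested lower and 5.64% to 9.19% higher. With DESeq2 45 of the 135 were lower and 2 higher. Without the 3 fasted libraries that stood apart, an alternative added after seeing the data, 29 were lower and none higher. For DESeq2 and for the fit without these libraries, the share over all features tested was not worked out. The median of the difference was -0.50 over the 135 with TMM and -0.13 with library size alone, against -0.01 and 0.34 over all features tested.

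Among the named features that passed this test, rank 68 and rank 49 had the differences of largest size, at -3.01 (SE 0.25, edgeR adjusted p = 3.52e-05) and -3.09 (SE 0.54, edgeR adjusted p = 0.00381) on the log2 scale. At 28 days their fed and fasted libraries overlapped, at 2024 to 2536 against 2476 to 3381 CPM for rank 68 and 1730 to 6885 against 3111 to 5261 CPM for rank 49. Rank 1 differed by -1.77 (SE 0.22, edgeR adjusted p = 0.000522). For these 3 features the fasted groups overlapped, and the fed 8-day group was the low one. Ranks 68 and 49 were under 1000 CPM in that group mean alone, so their p-values restate in part how they were chosen.

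The third comparison set fed livers of 28 days against fed livers of 8 days, which differ in time on the diet and in whatever else differed between the groups. With TMM scaling 48 of the 135 features were higher and 2 lower at 28 days (edgeR, adjusted p under 0.05), where 14.3% of all features tested were higher and 12.8% lower. Of the 739 features at 100 up to 1000 CPM, 34.1% were higher and 10.4% lower. With library size alone 36 were higher and 10 lower, where 3441 of the 32212 features tested were higher and 5469 lower. The direction over all features tested thus turned with the scaling, and that of the 135 did not. The median log2 fold change of the 135 was 0.37 with TMM and 0.11 with library size alone. Over all features tested it was 0.01 and -0.24. All 4 scalings called 36 of the 135 higher and 2 lower. The single scalings called 3441 to 5032 of all features tested higher and 3709 to 5469 lower. In CPM, 50 of the 135 were higher in each 28-day than in each 8-day library and 24 lower, where 18.7% and 29.4% of all features tested were.

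The largest rises were those of rank 49 (log2 fold change 3.22, SE 0.41, edgeR adjusted p = 0.000222) and rank 68 (2.88, SE 0.18, edgeR adjusted p = 2.28e-06), with the values already given. Rank 1 rose by 1.505 (SE 0.16, edgeR adjusted p = 6.53e-05), rank 10 by 1.43 (SE 0.17, edgeR adjusted p = 0.000144) and rank 3 by 0.94 (SE 0.17, edgeR adjusted p = 0.00195) on the log2 scale. The 2 lower features were rank 95 and rank 124, of 886 and 693 nucleotides. Rank 95 went from 1242, 1203 and 1396 to 603, 531 and 555 CPM (log2 fold change -0.93, SE 0.26, edgeR adjusted p = 0.0225). That call was lost without any 1 of these 6 libraries other than fed 8-day replicate 2 (log2 fold change -0.99 to -0.86, edgeR adjusted p = 0.051 to 0.0922). Rank 124 went from 1023, 1016 and 1075 to 585, 418 and 556 CPM (log2 fold change -0.74, SE 0.14, edgeR adjusted p = 0.00221). Both were lowest in the fed 28-day livers and higher again in the fasted 28-day livers, at 1460 to 2624 and 1163 to 1418 CPM. Ranks 95 and 124 were under 1000 CPM in the fed 28-day group mean alone, and ranks 49 and 68 in the fed 8-day group mean alone. The p-values of all of these restate in part how they were chosen. The comparisons of 8 days and of fed livers share the fed 8-day libraries, and those of 28 days and of fed livers share the fed 28-day libraries, so that a library group that stands apart enters both.

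The fourth comparison set fasted livers of 28 days against fasted livers of 8 days. None of the 135 features passed in edgeR's test, as none of the 32212 features tested did (0.0%), and none passed in DESeq2, in limma or without the 3 fasted libraries that stood apart. At an unadjusted p under 0.05 there was 1 of the 135, and 894 of all features tested. In CPM, 5 of the 135 did not overlap between the groups, 4 higher and 1 lower at 28 days, where 6.64% of all features tested did not, with 4.31% higher and 2.33% lower. The median log2 fold change was -0.11. The median coefficient of variation of the 135 within a group was 16.4% in fasted 8-day and 15.4% in fasted 28-day livers, against 8.55% in fed 8-day and 10.2% in fed 28-day livers. A test that is not passed does not show that the groups were alike.

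The ranks of the 13 features at 1000 CPM or more in both fed groups alone ran from 39 to 134 and their median length was 1217 nucleotides. Together they took 7.25%, 6.83% and 3.26% of the counts in the fed 8-day libraries and 4.46%, 6.19% and 2.18% in the fed 28-day libraries. In the fasted libraries they took 0.177%, 0.437% and 0.0558% at 8 days and 0.153%, 0.314% and 0.851% at 28 days. Since these features were grouped by their levels in fed and fasted livers, these values describe the class and are no test of it. Without these 13, the other abundant features took 49.4% ± 2.15 of the counts of fed 8-day, 59.0% ± 2.19 of fasted 8-day, 55.5% ± 1.145 of fed 28-day and 57.9% ± 1.20 of fasted 28-day libraries (mean ± SD, n = 3 each).

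Most of the 13 differed strongly between the libraries of a group, and in a common order. Their median coefficient of variation was 51.6% in fed 8-day, 103% in fasted 8-day, 62.5% in fed 28-day and 93.6% in fasted 28-day livers. In 11 of the 13, replicate 3 was the lowest library of both fed groups, the fasted 8-day libraries stood in the order replicate 3, 1 and 2 from low to high, and the fasted 28-day libraries in the order 1, 2 and 3. This order was noticed in the data, and the replicate numbers carry no order of their own. It was found in 12 of the 135 abundant features (8.89%), the other being rank 33, and in 216 of the 32212 features tested (0.671%). Since the order was taken from the 13, its share among the 135 follows in part from that choice. Outside the 13 it was found in 1 of 122 abundant features (0.82%), close to the share of all features tested.

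These 12 features together took 7.43%, 7.14% and 2.66% of the counts in the fed 8-day libraries, and 4.10%, 5.82% and 1.30% in the fed 28-day libraries. They took 0.208%, 0.583% and 0.0536% in the fasted 8-day libraries and 0.188%, 0.433% and 1.41% in the fasted 28-day libraries. Rank 33, of 1026 nucleotides, was the most abundant of them, at 13763, 14696 and 7142 CPM in fed and 506, 1607 and 51.1 CPM in fasted fish at 8 days. At 28 days its fed libraries held 5673, 5671 and 1301 CPM and its fasted libraries 473, 1306 and 5687 CPM, so that fed and fasted overlapped. It passed at 8 days (log2 fold change -4.15, SE 1.18, edgeR adjusted p = 0.0244) and not at 28 days (log2 fold change -1.14, SE 1.05, edgeR adjusted p = 0.559). The 8-day call was lost without fasted replicate 1 or fed replicate 1 or 2 (log2 fold change -4.12, -4.04 and -4.00, edgeR adjusted p = 0.076, 0.0525 and 0.0534). Rank 33 was under 1000 CPM in the fasted 8-day group mean alone, so its 8-day p-values restate in part how it was chosen. Whether a varying amount of another tissue in the samples has a part in this order was not tested, because no marker genes could be named.

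Ranks 42 and 82 of the 13 did not have this order and varied little between libraries of a fed group. Rank 82, of 850 nucleotides, stood at 4557, 4276 and 5146 CPM in fed and 190, 124 and 61.7 CPM in fasted fish at 8 days. At 28 days it stood at 2992, 2515 and 2706 CPM in fed and 114, 97.4 and 102 CPM in fasted fish. Its log2 fold change was -5.19 (SE 0.39, edgeR adjusted p = 7.54e-06) at 8 days and -5.05 (SE 0.38, edgeR adjusted p = 4.18e-05) at 28 days, with no overlap at either time. Since the 13 were grouped by their fed and fasted levels, these p-values restate that choice in part and are no separate support. The shortest abundant feature, rank 89, of 549 nucleotides, was 1 of the 11 with the common order and did not pass at either time (edgeR adjusted p = 0.0524 and 0.285), though its fed mean at 8 days was 15.9 times its fasted mean. At 8 days it passed with DESeq2 (log2 fold change -4.2, adjusted p = 0.00175) and with limma on log2(FPKM + 1) and log2(FPKM + 0.1) (adjusted p = 0.0252 and 0.0289). In edgeR's test it also passed without fasted replicate 2 (adjusted p = 0.026) and without the 3 fasted libraries that stood apart (log2 fold change -6.07, adjusted p = 0.0131).

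**Figure D5:**
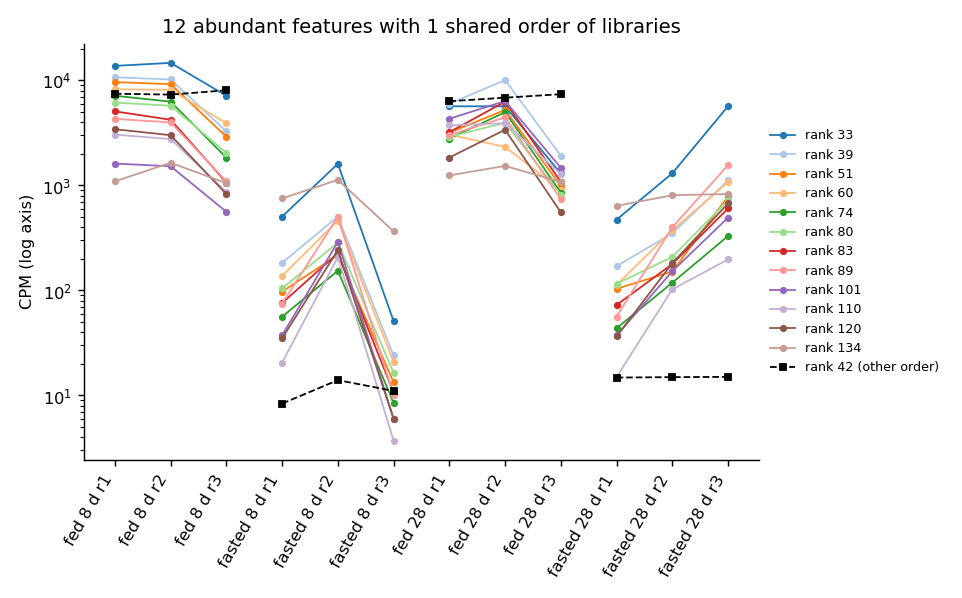
CPM (log axis) in each of the 12 libraries of the 12 abundant features that share 1 order of the libraries, and of rank 42 (black squares), which does not. Lines join the 3 libraries of a group only to mark the feature: replicate 3 is the lowest in both fed groups, while rank 42 stays between 6342 and 8056 CPM in fed and between 8.37 and 15.0 CPM in fasted livers.

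At the other end were features whose level hardly moved. The 3 with the smallest ratio of the highest to the lowest group mean were ranks 75, 43 and 125, at 1.083, 1.087 and 1.093. Rank 43, TRINITY_DN14526_c2_g3_i1_1, of 1682 nucleotides, had means of 3453 ± 271 CPM in fed 8-day, 3377 ± 101 in fasted 8-day, 3610 ± 644 in fed 28-day and 3673 ± 228 in fasted 28-day livers (SD, n = 3 each). Rank 75, of 5907 nucleotides, held between 1809 and 2206 CPM in all 12 libraries. With TMM scaling it was nevertheless called lower in fasted livers at 28 days (log2 fold change -0.46, SE 0.13, edgeR adjusted p = 0.0432) but not with library size alone (log2 fold change -0.11, adjusted p = 0.526), nor without any 1 of the 28-day libraries other than fasted replicate 1 (log2 fold change -0.55 to -0.40, edgeR adjusted p = 0.0686 to 0.153), nor without the 3 fasted libraries that stood apart (log2 fold change -0.42, edgeR adjusted p = 0.188). The features were picked as the steadiest of 135, so that their small ratios are a description. In all, 53 of the 135 passed in none of the fasting comparisons of both days and the comparison of fed livers. The share of all features tested that passed in none of them was not worked out.

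Among the 96 features at 1000 CPM or more in every group, 32 were higher and 2 lower in fasted livers at 8 days, 6 higher and 16 lower at 28 days, and 35 higher and none lower in fed livers at 28 against 8 days. Among the other 39, 17 were higher and 12 lower at 8 days, 4 higher and 9 lower at 28 days, and 13 higher and 2 lower between fed livers. Over all features tested, 13.3% were higher and 12.1% lower at 8 days, 4.14% and 5.79% at 28 days, and 14.3% and 12.8% between fed livers. The split used the group means that are compared, so the contrast between the 96 and the 39 follows in part from it and is a description. The longest abundant feature, rank 47, of 11930 nucleotides, belonged to the 96. It stood at 3862, 4503 and 4719 CPM in fed 28-day livers and at 2406 to 3303 CPM in the other 9 libraries, and fell at 28 days (log2 fold change -1.01, SE 0.18, edgeR adjusted p = 0.00504), also with library size alone (log2 fold change -0.66, adjusted p = 0.0185).

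The identifiers end in a number from 1 to 4 whose meaning the sources used here do not give. The abundant features were spread over these numbers differently from the table as a whole, with 42, 24, 34 and 35 of the 135 at numbers 1 to 4 (31.1%, 17.8%, 25.2% and 25.9%), against 17.2%, 27.8%, 34.7% and 20.3% of all features. Rises at 8 days were called for 11, 8, 14 and 16 features at the 4 numbers, and falls for 3, 3, 6 and 2. Over all features tested 13.3% rose and 12.1% fell, and these shares were not worked out for each number. The split of the calls therefore cannot be read as a trait of the abundant features. The members just inside the 1000 CPM threshold were rank 134 at 1015 and rank 135 at 1003 CPM, and the features just outside stood at 998.5 and 996.0 CPM. Rank 135, of 5505 nucleotides, rose at 8 days from 364, 408 and 462 to 1321, 1354 and 1489 CPM (log2 fold change 1.79, SE 0.19, edgeR adjusted p = 5.79e-05). This feature had reached the rule through fasted livers alone, so its p-values for both fasts restate in part how it was chosen. It stood at 605, 829 and 887 CPM in fed and 1502, 1507 and 1313 CPM in fasted fish at 28 days, without overlap, and the outcome depended on the test and the scaling. It did not pass with TMM (log2 fold change 0.56, SE 0.18, edgeR adjusted p = 0.0786), but it passed with library size alone (log2 fold change 0.90, edgeR adjusted p = 0.00444), with DESeq2 (adjusted p = 0.0473) and with limma on log2(FPKM + 1) and log2(FPKM + 0.1) (adjusted p = 0.00379 and 0.00393).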

How the data were processed

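RNA sequencing of liver was read from 12 samples, 3 in each of 4 groups. Per the labels' protocols, RNA with an integrity number of at least 7 went into stranded mRNA libraries, which were sequenced in pairs on an Illumina instrument. The submitters' processing notes list Trimmomatic and Bowtie2, and name neither the assembler nor the abundance program. The estimated counts that the authors deposited for each feature are values that are not whole, so reads that match several features may have been shared out among them. The FPKM table deposited by the authors gives the same features relative to length and library size, with implied totals at 95.8% to 105.1% of the count columns. Lengths are counts divided by FPKM, times a scale chosen so that lengths of the most abundant features came closest to whole numbers. The implied totals rest on the same scale. With it, lengths were whole within 0.02 nucleotides for 100% of features, which is in part how the scale was chosen.

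Estimated counts were rounded to whole numbers. All libraries entered 1 fit of edgeR 4.0.16 under R 4.3.3, with a mean for each of the 4 groups (filterByExpr, TMM factors 0.835 to 1.22, robust quasi-likelihood F test), with Benjamini-Hochberg adjustment over 32212 tested features and calls at an adjusted p under 0.05. All 135 abundant features passed the filter. Levels and overlaps are in CPM of the plain library total, and fold changes are from the fit. Standard errors are approximate, since they were worked out from the F statistic.

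Features were named by rule: the first 10 by level, the 2 highest and 2 lowest fold changes per comparison among features called without overlap, the features next to the threshold, the shortest and longest, and the 3 steadiest. Ranks 13, 16, 17, 33 and 82 were added after their values were seen. A rule on assembly loci named none, since each locus held 1 abundant feature. The features and classes were chosen with earlier results of these data known. Alternatives were RLE, upper-quartile and library-size scaling, no filter, DESeq2 1.42.0, limma 3.58.1 on log2(FPKM + 1) and log2(FPKM + 0.1), other thresholds, the replicate block, counts summed over the locus, the other fed group as control, and leaving out libraries. The labels do not say whether replicate numbers pair the samples, and they were not treated as pairs. The deviations of same-numbered libraries correlated at -0.192 to 0.195, which with 3 libraries in each group does not decide the question.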

Additional observations from a re-analysis of the deposited data

Results flagged for a closer look

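The effect of fasting differed between 8 and 28 days, by the interaction test of edgeR with TMM, for 37 of the 135 abundant features. Each had a lower value at 28 days, where 8.13% of all features tested were lower and 6.24% higher. With library size alone 22 of the 135 were lower and 2 higher, where 5.18% of all features tested were lower and 9.19% higher. A difference between the fed groups enters this test as much as one between the fasted groups. Among the features named, the log2 fold change at 28 days minus that at 8 days was -1.77 for rank 1, -1.13 for rank 3 and -1.61 for rank 10. It was -3.01 for rank 68, -3.09 for rank 49, -1.23 for rank 135 and -1.07 for rank 47. For ranks 16 and 17, singled out after their values were seen, it was -1.08 and -1.22. With library size alone, ranks 16 and 47 did not pass (edgeR adjusted p = 0.0692 and 0.0542). Ranks 49, 68 and 135 were under 1000 CPM in some group mean, so their tests restate in part how they were chosen. Ranks 1, 10, 16, 49, 68 and 135 had their lowest group mean in the fed 8-day livers, and ranks 3, 17 and 47 had their highest in the fed 28-day livers.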

How the results depend on the processing

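The named features were followed through the other scalings, no filter, the replicate block, DESeq2, limma and the fits with fewer libraries. They were not followed with the other fed group as control or with counts summed over the locus. Rank 10 stood higher in fasted 28-day than in fed 8-day livers, so the direction of its 28-day change depends on the control. In the alternatives followed, no called value changed its direction: of 41 such calls, 28 held in each and 13 were lost in some. Of 49 values not called, 17 gained a call in some. With the replicate block, 66, 29, 53 and 36 features passed at 8 days, at 28 days, between fed livers and for the difference of the fasts, against 63, 35, 50 and 37 without it. The fasted groups gave 0 under every alternative. The choice of features moved the counts with their number: at 500 CPM or more (272 features) they were 122, 76, 96 and 74, at 2000 CPM or more (76 features) 34, 19, 26 and 23, and at 1000 FPKM or more (93 features) 35, 22, 21 and 16, and the mean share of the counts, 58.11% at 1000 CPM, was 67.67%, 49.9% and 48.36%. With the fed group of the other day as control, 32 passed at 8 days and 63 at 28 days, without a share over all features tested to set beside them. At 28 days DESeq2 called 55, and 20 passed without the 3 fasted libraries that stood apart. A fit of the fed libraries alone called 76 between fed livers. The difference of the fasts was called for 24 with library size alone and for 24 with limma on log2(FPKM + 1). When each library was left out in turn, the counts were 44 to 69 at 8 days, 16 to 35 at 28 days, 36 to 46 between fed livers, 24 (without fed 8-day replicate 1) to 45 for the difference, and a share of 57.71% to 58.38%. The cause of these shifts was not tested beyond the number of features or libraries each alternative leaves. In each library 3 counts equalled at most 0.179 CPM, and whether depth has a part in these shifts was not tested. The other thresholds used the main fit, where 25.3%, 9.92%, 27.1% and 14.4% of all features tested passed, in the same order of comparisons. For the replicate block, DESeq2, limma and the fits with fewer libraries, the share over all features tested was not worked out. Counts from those fits cannot be told apart from a change of the whole table.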
